A study of Homo sapiens with 12 samples.

Results

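Acetylation of histone H3 at lysine 27 (H3K27ac) marks active promoters and active enhancers. Where a cell line carries several H3K27ac peaks close together, the group of peaks is often read as a domain of strong regulatory activity, and such domains are known to lie near genes that define a cell type. The regions described here are the multi-peak clusters that appeared in the endometrial carcinoma line Ishikawa and as clusters in no other line of the series. In each of 8 peak lists, peaks on chromosomes 1 to 22 were joined across short gaps (the joining distance is given with the processing), and clusters of 3 or more peaks were kept. Clusters of Ishikawa replicate 2 were taken when they overlapped such a cluster of Ishikawa replicate 1 and none of the other lines. This gave 149 of 1468 replicate 2 clusters (10.1%). The regions were thus chosen by measured values, namely the position and number of called peaks in these 8 lists, so the values of the lists are given as description.

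The 8 libraries were Ishikawa (2 libraries, endometrial carcinoma), H358 (2) and H2009 (2), both lung adenocarcinoma, HCC95 (1, lung squamous carcinoma) and BICR31 (1). BICR31 is a head and neck squamous line in the series' design text, whereas its sample label reads lung adenocarcinoma; the design text was followed. A further 4 H2009 libraries are labelled Empty, Control, e3KRAB1 and e3KRAB2 (1 each), terms the labels do not expand, and the rule did not use them. All cells are labelled as given no treatment and were grown in RPMI with 10% serum, and the same H3K27ac antibody was used throughout. Nothing in the labels states that replicates came from separate cultures. Ishikawa is known as a well-differentiated endometrial line that keeps estrogen and progesterone receptors, which are hormone-activated transcription factors of the uterine epithelium.

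The lists differed in form, and this bears on every count below. Replicate 1 of Ishikawa had 23623 peaks with a median width of 1522 bp, and replicate 2 had 26474 peaks with a median of 963 bp. Median widths were 348 to 383 bp in the H358 and H2009 lists, 823 bp in HCC95 and 896 bp in BICR31. A wider peak leaves a shorter gap to its neighbour, and its part in the number of clusters was not tested. Clusters of 3 or more peaks numbered 900 in Ishikawa replicate 1, between 1453 and 1636 in the H358 and H2009 lists, 560 in HCC95 and 2615 in BICR31. Read depth is unknown, and the peak lists give no counts.

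Promoters of 6 genes whose starts lay in the clusters are shown first, since they span the range of sharing described below. Each runs from 250 bases before to 50 bases after the start, is from RefSeq on GRCh38.p14 and was matched by symbol, and capitals mark CpG dinucleotides. The peaks are on hg19, so these coordinates are not those of the peaks. SMOC2 (chr6:168440934-168441233, plus strand), which encodes a matricellular protein, and HMX2 (chr10:123147886-123148185, plus), a homeobox gene, had a peak within 1 kb of the start in both Ishikawa libraries and in none of the other 6. CD274 (chr9:5450292-5450591, plus), which encodes the immune checkpoint ligand PD-L1, had such a peak in both Ishikawa libraries and in BICR31. SHROOM3 (chr4:76434979-76435278, plus), which encodes an actin-binding regulator of epithelial shape, had one in both Ishikawa libraries and in HCC95. YBX1 (chr1:42682168-42682467, plus), for an RNA- and DNA-binding protein, and GCLC (chr6:53545052-53545351, minus), for the catalytic subunit of the enzyme that starts glutathione synthesis, had one in all 8 libraries.
SMOC2: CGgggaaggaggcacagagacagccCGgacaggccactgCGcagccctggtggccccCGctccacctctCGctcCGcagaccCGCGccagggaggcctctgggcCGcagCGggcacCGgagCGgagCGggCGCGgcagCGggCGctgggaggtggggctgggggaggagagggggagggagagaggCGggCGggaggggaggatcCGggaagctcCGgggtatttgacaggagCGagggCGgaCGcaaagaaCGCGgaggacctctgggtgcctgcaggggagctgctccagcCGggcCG
HMX2: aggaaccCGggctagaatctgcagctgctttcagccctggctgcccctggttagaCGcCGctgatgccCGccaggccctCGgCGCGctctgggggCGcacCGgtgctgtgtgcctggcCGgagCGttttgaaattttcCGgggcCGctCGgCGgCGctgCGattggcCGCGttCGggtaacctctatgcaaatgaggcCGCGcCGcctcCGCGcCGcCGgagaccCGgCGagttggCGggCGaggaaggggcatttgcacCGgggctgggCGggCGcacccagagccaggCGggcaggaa
CD274: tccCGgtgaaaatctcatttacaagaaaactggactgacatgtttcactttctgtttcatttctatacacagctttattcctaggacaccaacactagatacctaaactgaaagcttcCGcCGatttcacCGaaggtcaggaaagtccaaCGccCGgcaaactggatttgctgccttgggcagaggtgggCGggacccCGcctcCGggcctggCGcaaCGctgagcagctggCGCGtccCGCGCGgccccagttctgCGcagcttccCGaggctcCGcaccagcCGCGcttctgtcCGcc
SHROOM3: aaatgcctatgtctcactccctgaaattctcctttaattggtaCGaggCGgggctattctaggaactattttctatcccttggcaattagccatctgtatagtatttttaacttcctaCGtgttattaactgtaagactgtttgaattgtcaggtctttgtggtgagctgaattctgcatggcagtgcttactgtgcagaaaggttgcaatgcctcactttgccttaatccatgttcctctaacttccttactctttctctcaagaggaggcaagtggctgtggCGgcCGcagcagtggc
YBX1: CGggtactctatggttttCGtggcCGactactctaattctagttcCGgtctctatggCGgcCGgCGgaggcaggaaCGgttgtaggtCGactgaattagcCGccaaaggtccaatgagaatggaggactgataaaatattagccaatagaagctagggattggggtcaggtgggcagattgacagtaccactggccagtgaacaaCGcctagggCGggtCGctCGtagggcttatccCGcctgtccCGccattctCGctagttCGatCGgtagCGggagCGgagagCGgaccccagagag
GCLC: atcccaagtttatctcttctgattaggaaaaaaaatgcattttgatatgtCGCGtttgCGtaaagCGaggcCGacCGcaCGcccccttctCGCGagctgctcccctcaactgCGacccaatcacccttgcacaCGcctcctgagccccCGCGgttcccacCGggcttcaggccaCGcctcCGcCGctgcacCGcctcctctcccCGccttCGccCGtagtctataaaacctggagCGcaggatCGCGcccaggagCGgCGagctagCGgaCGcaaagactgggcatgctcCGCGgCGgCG

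The SMOC2 promoter held 28 CpG, HMX2 35, CD274 22, SHROOM3 5, YBX1 22 and GCLC 32, against a median of 14 over the 35116 promoters of the table. SHROOM3 therefore stood below that median and the other 5 above it. Among gene starts inside the clusters with a single promoter entry, the median was 30.5 CpG for 6 starts with no peak in another line and 32.0 for 16 starts with a peak in all 6 libraries, so this letter count did not separate them. The sequence CCAAT, on either strand, was in the HMX2, SHROOM3, YBX1 and GCLC windows and in 34.6% of all promoters. TATAAA was in the GCLC window alone of the 6, and in 11.5% of all promoters.

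The clusters were short runs of peaks. The number of replicate 2 peaks was 3 in 96 clusters, 4 in 39, 5 in 12 and 6 in 2. Spans ran from 1.33 to 46.4 kb with a median of 16.6 kb, against a median of 14.2 kb for the other 1319 replicate 2 clusters. Called peaks covered a median of 25.4% of the span, or 3462 bp, compared with 3858 bp in the other clusters. The largest gap inside a cluster was over 11 kb in 41 of the 149, close to the joining distance, so many were held together by a single long gap.

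The strength of a cluster was described by the sum over its peaks of width times the authors' score, given in units of 1000000. In replicate 2 the lowest sum was 0.0573, the median 0.653 and the highest 4.97. Replicate 1 gave 0.0634, 0.765 and 4.75 over the same intervals. The other replicate 2 clusters had a median of 0.810, and a single one of all 1468 exceeded the highest of the 149. The clusters of Ishikawa alone thus had a lower median sum than the other clusters, with 1 cluster near the top of the list; the next highest sum among the 149 was 2.77.

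Both Ishikawa libraries ranked the clusters alike. Spearman's rho between replicates over the 149 was 0.926 for the sum and 0.936 for called bases, and both include the widths of the same genomic intervals. The ratio of the replicate 1 sum to the replicate 2 sum ran from 0.466 to 2.78 with a median of 1.07, and was above 1 in 92 clusters. Replicate 1 had fewer peaks than replicate 2 inside 57 clusters, as many in 88 and more in 4. Of the 516 replicate 2 peaks inside the clusters, 490 (95%) overlapped a replicate 1 peak, where 86.7% of all replicate 2 peaks did; the rule asked for a replicate 1 cluster and so favours such peaks.

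**Figure D1:**
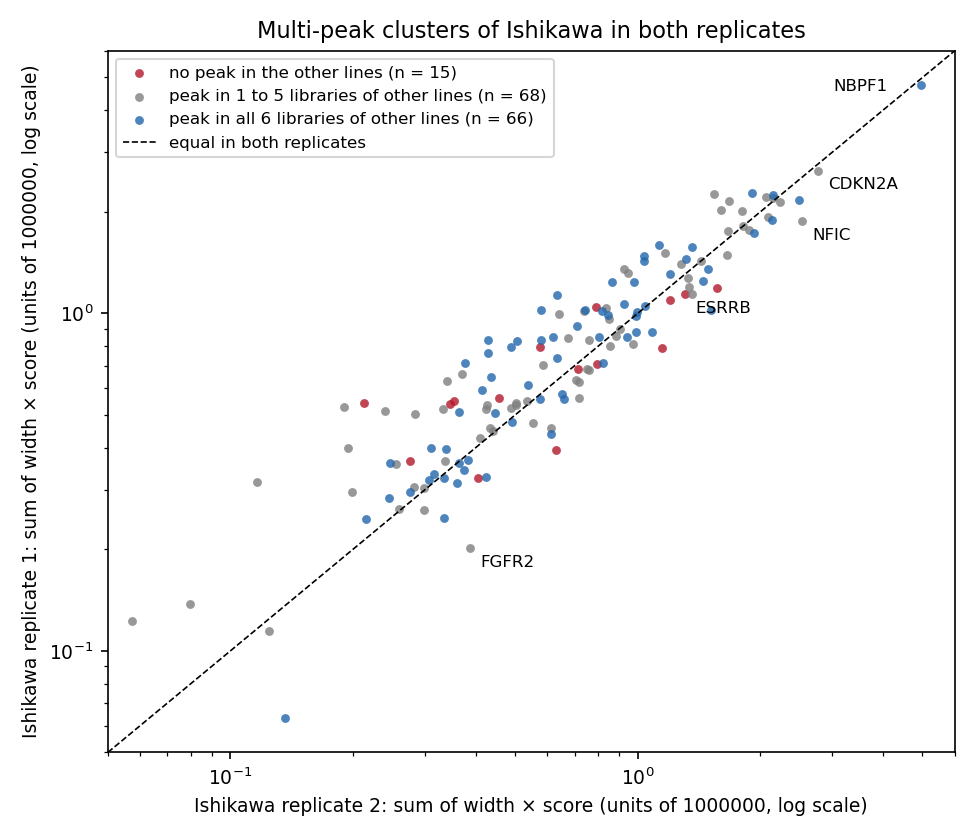
Each point is 1 of 149 clusters, with the sum of width times score in Ishikawa replicate 2 on the x axis and replicate 1 on the y axis (units of 1000000, log scales); colours give how many of the 6 libraries of other lines had a peak inside, and the dashed line marks equal sums. The points follow the line over the range from 0.0573 to 4.97 (rho 0.926), with NBPF1 and CDKN2A at the upper end and 92 points above the line.

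Being a cluster in Ishikawa alone seldom meant that other lines had no peak there. At least 1 peak of another line lay inside 134 of the 149 clusters (89.9%), and 77 clusters had peaks of all 4 other lines. By library, 66 clusters had a peak in all 6, where 67.9% of all replicate 2 clusters did, and 15 had a peak in none, where 5.11% did. The numbers with a peak in 1, 2, 3, 4 and 5 libraries were 14, 16, 12, 13 and 13. The rule excluded clusters and not peaks of other lines, so lower shares than the background were built into the choice.

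Peaks were found in 64.4% and 61.7% of the clusters in the H358 replicates (background over all replicate 2 clusters 83.7% and 82.8%). In the H2009 replicates the shares were 61.7% and 64.4% (background 80.9% and 81.0%). HCC95 had peaks in 69.1% (background 84.4%) and BICR31 in 77.9% (background 90.5%). The called bases of H358 and H2009 inside the clusters amounted to 8.26% to 9.83% of those called in Ishikawa replicate 2, of HCC95 to 19.8% and of BICR31 to 27.2%. In the other replicate 2 clusters the same measure was 19.2% to 23.5% for H358 and H2009, 36.4% for HCC95 and 53.6% for BICR31. All 6 lists thus had fewer and less extensive peaks in the clusters of Ishikawa alone, with BICR31 the most extensive.

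**Figure D2:**
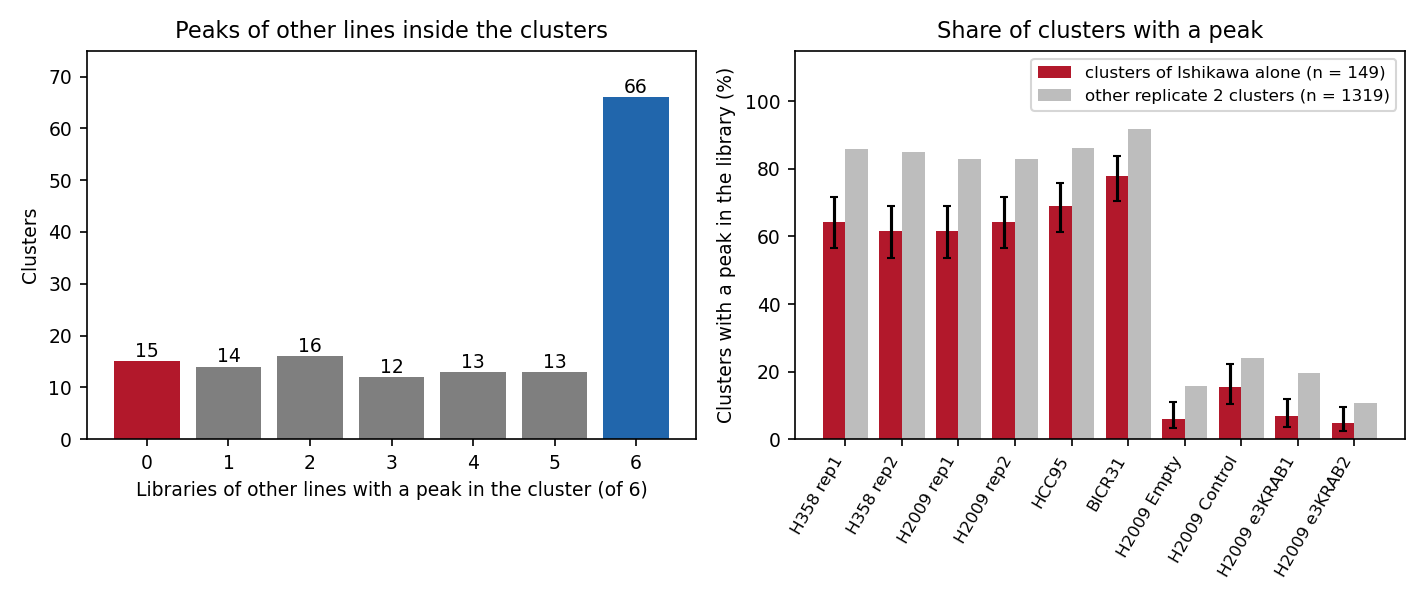
Left, the number of clusters (y axis) by how many of 6 libraries of other lines had a peak inside (x axis); right, the share of clusters with a peak in each library (y axis, %) for the 149 clusters (red, with 95% Wilson intervals that cover counting error only) and the other 1319 replicate 2 clusters (grey). The left panel piles up at 6 libraries (66 clusters), and each red bar is lower than its grey neighbour.

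At the level of peaks, 232 of the 516 (45.0%) had no overlapping peak in the other lines, while 24.0% of all replicate 2 peaks had none. Only 64 (12.4%) overlapped peaks of all 6 libraries, against 31.9% of all replicate 2 peaks, and 220 overlapped peaks of 1 to 5 libraries. The median score was 96.1 for peaks found in no other library, 138 for those in 1 to 5 and 239 for those in all 6. Median widths were 931, 1040 and 1238 bp. Peaks seen in Ishikawa alone were therefore, by the median, the lower-scored and narrower peaks of the clusters.

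**Figure D3:**
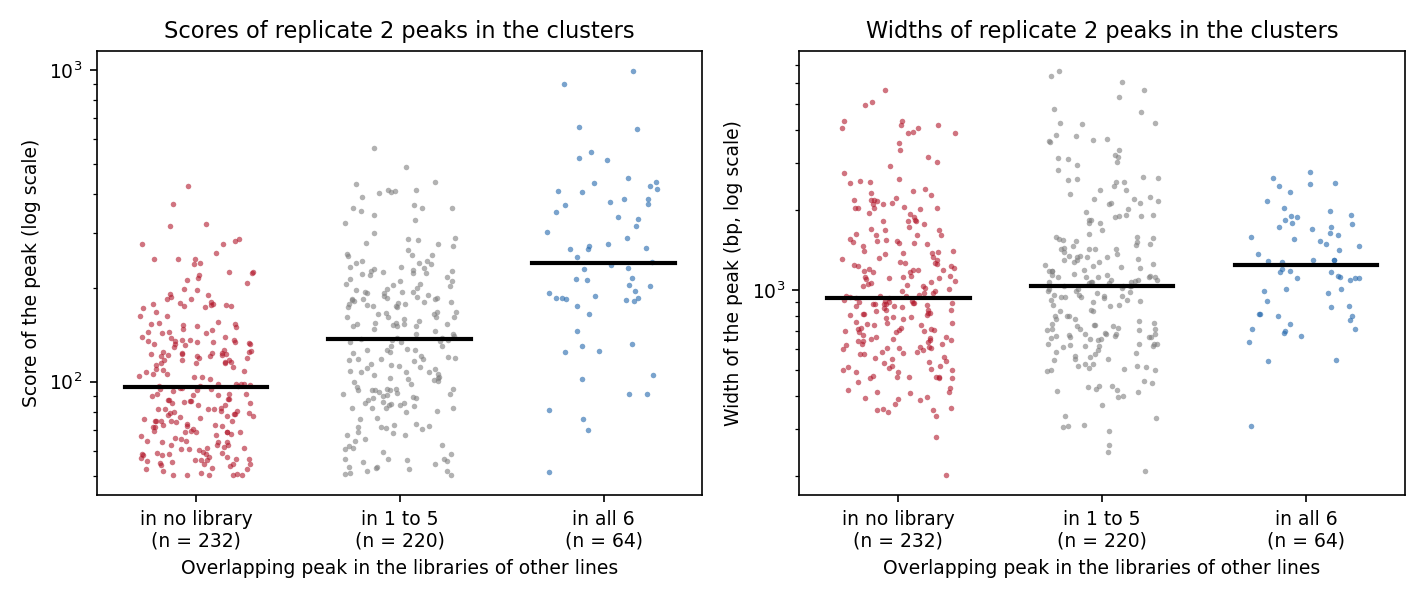
Each point is a replicate 2 peak inside the 149 clusters, by its score (left, log scale) or width in bp (right, log scale) and by overlap with peaks of the 6 libraries of other lines; black bars are medians, and sideways position is random. The median score rises from 96.1 to 239 and the median width from 931 to 1238 bp from the left to the right column of each panel, with wide overlap of the columns.

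Most of the 66 clusters with a peak in every library held a shared peak. In 56 of them a replicate 2 peak overlapped peaks of all 6 libraries and in 10 none did. Of the 232 replicate 2 peaks in the 66 clusters, 74 (31.9%) were in no other line. There were 15 clusters with no such peak, 31 with 1, 17 with 2 and 3 with 3. In those 15 every replicate 2 peak overlapped a peak somewhere among the other lines. Whether they differed by the grouping of peaks or by the splitting of a wider peak was not tested. At chr6:26520449-26522290, for example, HCC95 and BICR31 each had 1 peak, covering 1530 and 1579 of 1842 bp, where replicate 2 had 3 peaks. In replicate 2 the median sum of the 66 (0.633) was close to that of the 15 clusters with no peak in another line (0.630). In replicate 1 the medians were further apart, 0.835 for the 66 and 0.683 for the 15 clusters with no peak in another line. The latter had longer spans (median 19.9 against 15.5 kb) and replicate 2 peaks of lower score (median 81.7 against 134).

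Values next to the limits of the rule were as follows. A further 114 replicate 2 clusters overlapped a replicate 1 cluster but also a cluster in exactly 1 library of another line, which was BICR31 for 75 of them, and their median sum was 0.850. Another 357 had no cluster in other lines but also none in replicate 1; 352 of these did have a replicate 1 peak, and their median sum was 0.401. Replicate 2 had 4592 clusters of exactly 2 peaks with a median sum of 0.326, and the clusters of 3 peaks among the 149 had a median of 0.545.

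The highest sums are described next with the genes at each position (hg19); whether a peak is exonic or intronic was not analysed here. The cluster with the highest sum (chr1:16938757-16972143, 4 peaks in each replicate) reached 4.97 in replicate 2 and 4.75 in replicate 1. It covers NBPF1 and the pseudogene CROCCP2, in a stretch of chromosome 1 known for near-identical copies, so reads of the copies may not be separable. Both outer peaks scored 903 and 993 in replicate 2 and had a counterpart in every other library. The inner peaks, with scores of 188 and 120, completed the cluster, and 1 of them was in no other line.

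The cluster at CDKN2A (chr9:21964848-21996115) had sums of 2.77 and 2.65. CDKN2A encodes the cell cycle inhibitor p16INK4a and, from another first exon, p14ARF. Its 4 replicate 2 peaks scored 181, 488, 113 and 407, and the replicate 1 peaks 159, 495, 82.0 and 284. H2009 had 4 and 3 peaks here and H358 replicate 2 had 3, but H358 replicate 1 and HCC95 had none, and BICR31 had 1. The replicates of H358 thus differed at this gene, and the H358 peaks were 249 to 272 bp wide. The widest Ishikawa peak was 3669 bp in replicate 2 and 4028 bp in replicate 1.

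NFIC, which encodes a nuclear factor I transcription factor, came next (chr19:3386427-3406044; 2.53 in replicate 2, 1.88 in replicate 1). Its 3 peaks covered 11520 of 19618 bp, and other lines had 1 peak in H2009 replicate 2 and 2 in BICR31. The peaks thus took up most of the cluster in Ishikawa, and 4 of the 6 other libraries had no peak in it.

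Of the 20 clusters of highest sum, 6 had peaks in all 6 libraries, 13 in 1 to 5 and 1 in none. SHROOM3 (chr4:77341779-77382187) had sums of 2.24 and 2.13 in replicates 2 and 1. RBBP8 (chr18:20479979-20514496), for the DNA end resection factor CtIP, had 2.15 and 2.25. In the other lines SHROOM3 had 0 to 3 peaks per library and RBBP8 had 1 or 2.

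Sums at MTCL2 (chr20:35440220-35464962) were 2.14 and 1.89. STEAP1B (chr7:22465948-22493011) had 2.09 and 1.93 and, with 14516 bp, the most called bases of the 149 in replicate 2. ATF7IP (chr12:14536341-14556715), for a cofactor of heterochromatin formation, had 2.06 and 2.22 with no peak in H358 or H2009. CENPU (chr4:185654159-185670752), for a centromere protein, had 1.93 and 1.73. At the other end of the sharing scale, PTBP1 (chr19:772879-799808), for a splicing repressor, had 1.91 and 2.27 with 1 to 3 peaks in each other list.

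COL18A1 (chr21:46825635-46859489), the collagen from which endostatin is cut, had 1.82 and 1.81. RBMS3 (chr3:29471727-29510651), for an RNA-binding protein, had 1.81 and 2.01 and a single peak each in H358 replicate 1 and HCC95. RASSF9 (chr12:86214285-86240066) had 1.60 and 2.02. MIR4435-2HG (chr2:112102679-112135709), a long non-coding RNA gene, had 1.68 and 2.15, and a cluster at chr2:87871739-87904941 had 1.17 and 1.51. These regions of chromosome 2 are known as near-copies of each other, so their values are uncertain and may come from the same reads.

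Another 4 of the 20 lay between known genes. The cluster at chr15:62040553-62073939, between RORA and VPS13C, had sums of 2.15 and 2.19, and its 4 replicate 2 peaks met a single BICR31 peak. At chr8:38482148-38502101, between the receptor gene FGFR1 and TACC1, sums were 1.66 and 1.76 and HCC95 alone had a peak. At chr3:79967008-79989452, between ROBO1 and GBE1, they were 1.66 and 1.49, with a peak in BICR31 alone. The cluster at chr3:166831102-166855851, between BCHE and ZBBX, had 1.57 and 1.19 and no peak in any other list. Intergenic clusters were the emptiest of the top 20 in the other lines.

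Clusters named for length or number of peaks added 11 more. PTPRJ, for a receptor tyrosine phosphatase, had a pair of clusters 61.6 kb apart: chr11:47994298-48013514 (5 and 3 peaks, sums 1.49 and 1.36) and chr11:48075121-48110060 (5 and 5 peaks, sums 0.852 and 0.962). The first had peaks in all 6 other libraries, the second in H358 replicate 1 and both H2009 libraries. A 39.3 kb cluster at chr17:70497254-70536589, in the gene-poor stretch beyond SOX9, had 5 peaks in each replicate and sums of 1.54 and 2.26. TRIM2, ADAMTS18, IMPA2, NCS1, MAPK8IP2 with ARSA, and MBD4 with IFT122 had sums between 0.489 and 1.35 in replicate 2. The 6-peak cluster at chr16:11391445-11422535, between SOCS1 and LITAF, held 3 replicate 1 peaks and sums of only 0.433 and 0.457, so a high number of peaks did not go with a high sum there.

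The 15 clusters with no peak of any other line are the strictest set. Their replicate 2 sums ran from 0.213 to 1.57, and all 49 of their replicate 2 peaks were without counterpart. Known genes at 7 of them are given here, chosen after their values were seen. The starts of these genes were not all free of other lines. Within 1 kb of the start, KLF13 had a peak in 5 libraries of other lines, MLPH in 4, GLIS3 in 2 and MIR181A1HG in 1. The ESRRB, SMOC2 and SOD3 starts had a peak in none of them. ESRRB (chr14:76861164-76881687; sums 1.31 and 1.14), for an orphan nuclear receptor related to the estrogen receptors, had 3 peaks of 5070, 4057 and 1829 bp in replicate 2 and 5578, 5356 and 2894 bp in replicate 1. GLIS3 (chr9:3969486-3994564; 1.20 and 1.10), for a zinc finger transcription factor, had 4 and 3 peaks, with top scores of 260 and 138. Both loci were broad domains, since the widest peak of each measured over 4 kb in both replicates.

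KLF13 (chr15:31644497-31654015; 0.455 and 0.560), for a Krüppel-like transcription factor, had 3 peaks in each replicate. SMOC2 (chr6:168828501-168853877; 0.714 and 0.683) and SOD3 (chr4:24782593-24797943; 0.404 and 0.325), for extracellular superoxide dismutase, each held the gene's start. MLPH (chr2:238455229-238480855; 0.276 and 0.365), for melanophilin, a transport adaptor, had 4 and 3 peaks. The remaining 8 lay away from genes whose position was held with certainty.

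The seventh was in MIR181A1HG (chr1:198799244-198819139; 1.15 and 0.792), the host gene of microRNAs 181a-1 and 181b-1. Its 4 peaks scored 139, 240, 74.0 and 224 in replicate 2 and 89.8, 146, 54.6 and 174 in replicate 1, in order along the chromosome, so replicate 1 was lower throughout. The mature 5p sequences from RefSeq (GRCh38.p14) are shown because this is the host gene of a microRNA family; capitals mark the seed, bases 2 to 8, which both share. No level of either RNA was measured.
hsa-miR-181b-5p: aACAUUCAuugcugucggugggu
hsa-miR-181a-5p: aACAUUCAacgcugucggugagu

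Genes with uterine, hormone, Wnt, developmental, lung, squamous, blood and stromal roles were looked up as lists. Of their 49 genes 12 (24.5%) lay within 100 kb of any replicate 2 cluster of 3 or more peaks, and 4 of these 12 were that near to 1 of the 149 clusters (8.16% of the 49), which make up 10.1% of all replicate 2 clusters. The 4 were ESR1, FGFR2, TP63 and PTPRC. PTPRC, a blood cell gene, counted through the MIR181A1HG cluster and had no peak at its start in Ishikawa. A peak in both Ishikawa replicates was found at 26 of 49 starts, among them 7 of 12 uterine genes (ESR1, PGR, EMX2, HOXA10, HOXA11, MSX2 and WNT7A) and 6 of 7 Wnt genes (AXIN2, LEF1, LGR5, NKD1, RNF43 and WNT4). In the other lines the starts of ESR1, PGR, EMX2, LEF1, LGR5 and NKD1 had no peak in any of the 6 libraries, whereas RNF43 had 1 in 5 of them, AXIN2 and WNT7A in 4, HOXA10 in 3, HOXA11 and MSX2 in 2 and WNT4 in 1. Both Ishikawa replicates had peaks at the starts of 0 of 2 lung, 0 of 3 squamous, 0 of 1 blood and 1 of 2 stromal genes (COL1A2). The share of marked starts over all genes was not analysed here, so these counts describe the lists alone. A single start was used per gene, and peaks at any other start of a gene, TP63 included, were not counted.

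ESR1 encodes estrogen receptor alpha. Its cluster (chr6:152078695-152102845, 24.2 kb) had 4 peaks in each replicate and sums of 0.585 and 0.703. The replicate 2 peaks scored 61.0, 168, 72.4 and 50.1, and the replicate 1 peaks 65.4, 204, 59.3 and 54.5. H358, H2009 and HCC95 had no peak in it, and BICR31 had a single peak over the strongest Ishikawa peak. The replicates placed all 4 peaks alike, though the weakest stood just above the lowest score of the lists (50).

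FGFR2 encodes a receptor of fibroblast growth factors. Its cluster (chr10:123356888-123368828) had 3 peaks in each replicate and sums of 0.388 and 0.201, HCC95 had 1 peak, BICR31 had 2, and the lung adenocarcinoma lists had none. TP63 encodes p63, a transcription factor of squamous epithelium. The cluster in its gene body (chr3:189474090-189492290) had 3 peaks in each replicate with sums of 1.34 and 1.20. Its replicate 2 scores were 82.3, 290 and 277. HCC95 had 1 peak there, H2009 replicate 2 had 1 and BICR31, a squamous line, had none. None of the 12 lists, the squamous lines included, had a peak at the TP63 start used here. Only that single start was looked up, so peaks at any other start of TP63 were not counted and its absence says nothing of them.

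Further transcription factor and signalling genes were chosen after their values were seen. PAX6 (chr11:31831198-31839008; sums 0.749 and 0.686), for a paired-box factor of eye and brain, had 3 peaks in each replicate, with top scores of 360 and 225, and a single BICR31 peak. The 5′ end of the HOXD array, at HOXD13, HOXD12 and HOXD11 (chr2:176957150-176973204; 0.758 and 0.835), had 4 and 3 peaks, with none in H358. The cluster at HMX3 and HMX2 (chr10:124894985-124915012, sums 0.805 and 0.848) had 4 replicate 2 peaks. The strongest (chr10:124913738-124915012, score 521) was the only 1 of the 4 found in all 6 other libraries, and 2 were in no other line. That strongest peak lay more than 1 kb from the start of either gene. Genes outside the list of 162 positions were not looked up, so whether it lies at another gene was not analysed here. The cluster's sum therefore describes the interval and not HMX3 and HMX2 alone. The replicate 2 peaks at the HMX2 start scored 74.6 and 103. BARX1, another homeobox gene (chr9:96707863-96718384; 0.259 and 0.263), had peaks in H358 alone of the other lines. RUNX1 (chr21:36249423-36262685; 0.613 and 0.457), for a transcription factor of blood and epithelium, had peaks in 5 of the 6 other libraries.

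MSI1 (chr12:120798990-120807773; 0.883 and 0.857), for an RNA-binding protein of progenitor cells, had a peak in HCC95 alone of the other lines. CSPG5 (chr3:47612416-47621093; 0.759 and 0.681), for a proteoglycan, had a peak in HCC95 and in H2009 replicate 1. The CD274 cluster (chr9:5436870-5450938, sums 0.308 and 0.322) had peaks in all 6 other libraries although only BICR31 had one at the gene's start. The replicate 2 peak shared by all 6 (chr9:5436870-5437844, score 183) lay more than 1 kb from that start. Whether it lies at a gene outside the position list was not analysed here, so the cluster's sum describes the interval and not CD274 alone. At the start the replicate 2 peak scored 119.

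**Figure D4:**
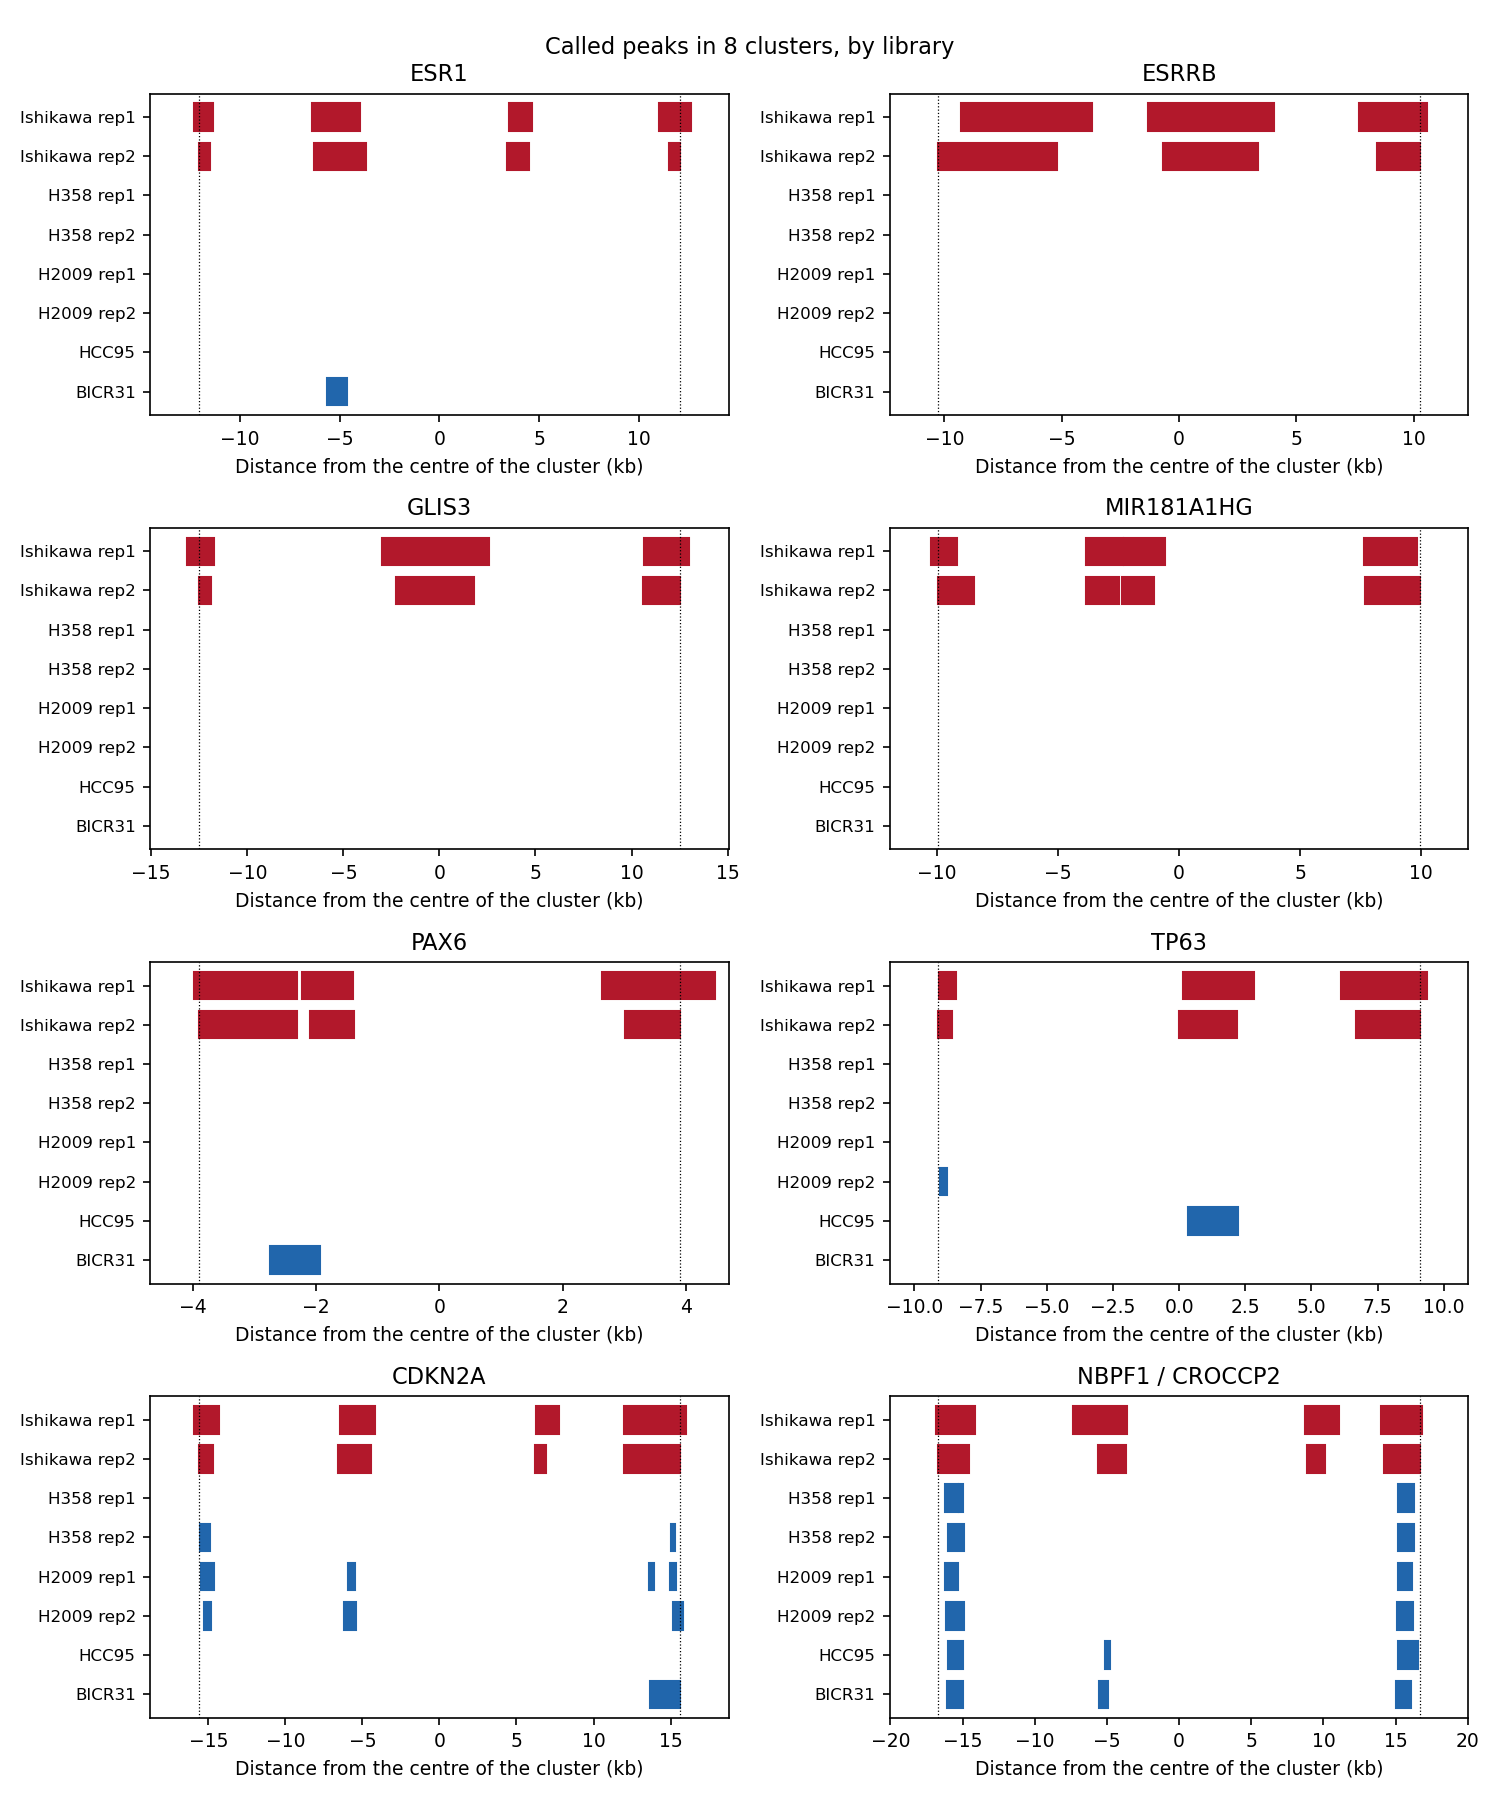
Called peaks (bars, to scale) in 8 clusters, 1 panel each, by library (y axis) and distance from the centre of the cluster in kb (x axis); dotted lines are the cluster's ends in replicate 2, Ishikawa is red and other lines are blue. ESRRB, GLIS3 and MIR181A1HG have no blue bar, ESR1 and PAX6 have 1 in BICR31, TP63 has 1 each in H2009 replicate 2 and HCC95, and the outer peaks at NBPF1 appear in every library.

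Genes were placed from a list of 162 positions, chosen with earlier results of these data known, and 89 of the 149 clusters overlapped a listed gene. Starts of listed genes inside the clusters numbered 71, and 70 had a peak within 1 kb in both Ishikawa libraries. In the other lines 34 of the 71 had such a peak in all 6 libraries and 10 in none. The remainder had a peak in 1 (8 starts), 2 (5), 3 (4), 4 (7) or 5 (3) libraries. The listed starts were thus mostly either shared by every list or partly shared, and a minority belonged to Ishikawa alone. The same shares over all gene starts were not analysed here, so these counts describe the listed genes only.

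The 4 further H2009 lists, which did not take part in the choice, were short (1349 to 3204 peaks). They had a peak in 9 clusters for Empty (6.04%, background 14.6%), 23 for Control (15.4%, background 23.2%), 10 for e3KRAB1 (6.71%, background 18.3%) and 7 for e3KRAB2 (4.70%, background 10.1%). Each share was below that of all replicate 2 clusters, as in the H2009 replicates. These lists come from H2009, a line whose clusters the rule excluded, so their lower shares are not independent of the choice.

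Chromosomes 1, 7 and 11 held 12 clusters each. By share of replicate 2 clusters, chromosome 18 was highest with 5 of 17 (29.4%), while chromosome 5 held 1 of 44, chromosome 19 held 6 of 142 and chromosome 13, with 19 clusters, held none. On chromosome 22 a row of 3 clusters at 22q13, from SBF1 to MAPK8IP2 and ARSA, was separated by 15 and 91.6 kb. Copy number was not analysed here.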

How the data were processed

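The 12 deposited lists hold peaks and 1 score per peak, and reads were aligned with BWA to hg19 per the submitters' processing notes; the version, the peak caller, the control and any pooling are each not given in the sources used. The authors' score equals 10 times the −log10 q, cut to a whole number, in all lists but those of Ishikawa, where its meaning is not stated and it starts at 50; scores were compared within a list and, as values, between the 2 Ishikawa lists, which have the same form. Peaks on chromosomes 1 to 22 were joined within 12.5 kb and overlaps needed 1 bp (Python 3.11.15, pandas 2.3.3, numpy 2.4.6); joining and overlap were tested on simulated data. The clusters, genes and lists were chosen with earlier results of these data known, and no test was run on values that chose them. Named clusters were the 20 of highest replicate 2 sum, the 10 longest and the 10 with most peaks (14 with ties), 31 in all, and list genes within 100 kb. Positions of 162 genes on hg19 came from general knowledge and matched the RefSeq table in chromosome and order of neighbours. Other genes at the clusters were not looked up. Peak lists hold no read counts, so depth and the precision it gives are unknown. Of the named clusters, 2 are not reported here. Alternatives are given at the end.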

Additional observations from a re-analysis of the deposited data

Results flagged for a closer look

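On the X chromosome, which the rule leaves out, 6 of 42 replicate 2 clusters of 3 or more peaks met the same conditions. Their replicate 2 sums ran from 0.194 to 0.980 (units of 1000000), the highest at chrX:54055086-54071957, and each had a peak in at least 1 library of another line. They were not counted among the 149.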

How the results depend on the processing

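The number of clusters in Ishikawa alone was 149. It was 50 with a joining distance of 5 kb, 543 with at least 2 peaks and 56 with at least 4. With the higher-ranked 50% of each list it was 12, mostly other regions, since only 2 of the 149 overlapped them, and when any peak of another line counted, 15. It was 224 without BICR31, the longest list. Leaving out an Ishikawa replicate gave 242 to 506. It stayed within 1.5 times the main number, at 147 to 186, with a 20 kb distance, 50% overlap with replicate 1, lists of equal length or a single replicate of H358 and H2009. The clusters themselves changed more: 91 of the 149 overlapped those found at 20 kb, 22 those at 5 kb, 51 those of at least 2 peaks, 27 those of at least 4, and 108 those from lists of equal length. Of the 20 clusters of highest sum, 13 were among the 20 by width alone, 6 by mean score per called base and 18 by replicate 1 values. Clusters with a peak of another line numbered 133 when 50% of the peak had to lie inside, and list genes near a cluster 3 within 20 kb and 4 within 250 kb. No paired analysis was possible because the results come from no test. Limits: the uniqueness of a cluster depends on the joining distance, the minimum of peaks and the other lines compared. The form of the list and the line cannot be told apart, since the Ishikawa lists alone have their form. BICR31 and HCC95 had 1 library each. Read depth is unknown.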
